A study of Mus musculus with 12 samples.

Results

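Heat shock proteins are molecular chaperones, which bind unfolded or newly made proteins and help them reach or regain their fold. HSP70 proteins take up short exposed stretches of a client, J-domain (HSP40) partners deliver the client and stimulate the ATPase of HSP70, HSP110 proteins act as nucleotide exchange factors that release it, and HSP90 proteins take over a set of signalling proteins at a later stage of folding. Some of these genes are transcribed in every cell, others are switched on by heat shock factor 1 within minutes of heat, handling or other protein-damaging stress, and a separate set serves the mitochondrion or the endoplasmic reticulum (ER).

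The 10 genes described here were taken by symbol from a table of 41128 genes. They are the stress-inducible HSP70 genes Hspa1a and Hspa1b, the constitutive HSP70 gene Hspa8, the J-domain gene Dnajb1, the HSP110 gene Hsph1, the cytosolic HSP90 genes Hsp90aa1 and Hsp90ab1, the mitochondrial chaperonin genes Hspd1 and Hspe1, and the ER HSP70 gene Hspa5, also known as BiP. All 10 were found once in the table, and all 10 passed the filter on low values (3 or more libraries at 1 adjusted TPM or above), as did 12520 genes of the table.

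RNA was sequenced from resting B cells (CD43-) and naive CD4+ T cells (CD62L+) of the spleen, taken from C57BL/6J mice between 6 and 8 weeks of age. Each sex gave 3 libraries of either cell type, which makes 4 groups and 12 libraries. The mice carry no engineered allele and received no treatment according to the labels, and each library was made from pooled animals. Within a sex, the numbers 1 to 3 mark B cells and 4 to 6 mark T cells in the labels, and these numbers name the libraries below. Adjusted TPM is a share of transcripts corrected for gene length, after a rescaling between libraries by the authors, so levels can be compared between genes. Sequencing depth is unknown, and each library summed to between 561020 and 1453940 adjusted TPM. The marker genes followed the labels, with Cd79a, a part of the B cell receptor, at 417 to 573 adjusted TPM in B cells but 0.571 to 1.58 in T cells. Cd4 was at 179.6 to 203 in T cells but 0.00142 to 0.00594 in B cells. In bulk RNA, fewer cells of a type and less RNA per cell cannot be told apart.

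The control sequences of these genes are shown first because the 10 genes fall under different known regulators. The promoter set from RefSeq (build GRCm38.p6) held 7 of the 10 genes, without Hspa8, Hsp90aa1 and Hsp90ab1, and the 250 bases before each of their 10 annotated starts were searched on both strands. Heat shock factors bind inverted repeats of GAA. A run of 3 such units (GAANNTTCNNGAA or TTCNNGAANNTTC) was present before 0.466% of 32851 promoters, a run of 2 units (GAANNTTC or TTCNNGAA, which every run of 3 also holds) before 12.8%, and the ER stress response element (CCAAT, any 9 bases, then CCACG) before 0.113%. Capitals mark the matched bases in these windows of 30 bases.
Hspe1, chr1:55088053-55088082, plus strand, 71 bases before the start: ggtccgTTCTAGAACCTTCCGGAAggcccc
Hsph1, chr5:149636351-149636380, minus strand, 25 and 46 bases before its annotated starts: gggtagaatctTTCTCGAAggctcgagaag
Hspa1a, chr17:34972242-34972271, minus strand, 96 bases before the start: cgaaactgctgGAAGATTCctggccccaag
Hspa1b, chr17:34959324-34959353, minus strand, 96 bases before the start: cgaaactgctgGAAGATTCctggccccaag
Hspa5, chr2:34772020-34772049, plus strand, 46 bases before the start: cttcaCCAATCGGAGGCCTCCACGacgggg
Hspe1 and Hspd1 lie head to head on chromosome 1, and the window shown for Hspe1, which holds 2 overlapping runs of 3 units, is read from the other strand 126 bases before 1 of the 2 annotated starts of Hspd1. Hsph1, Hspa1a and Hspa1b each held a single run of 2 units, and Hspa5 held the ER stress response element and no run of GAA units. None of these patterns was present in the 250 bases before either start of Dnajb1. The 250 bases before Hspa1a and Hspa1b were identical at 247 positions. A match of letters is a description and not evidence of binding in these cells.

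The 10 genes spanned about 2 orders of magnitude in level. Hspa8 was the most abundant, with a mean of 1119 adjusted TPM over the 12 libraries, followed by Hsp90ab1 with 371, Hspa5 with 232, Hsp90aa1 with 209.9, Hspe1 with 90.1, Hspd1 with 61.1, Dnajb1 with 49.7, Hspa1b with 30.2, Hsph1 with 22.7 and Hspa1a with 11.7. The order of Hspa8 above Hsp90ab1, of Hsp90ab1 above Hspa5, of Hsp90aa1 above Hspe1 and of Hspe1 above Hspd1 held in 12 of 12 libraries. Hspa5 was above Hsp90aa1 and Hspd1 above Dnajb1 in 10 of 12 libraries each, and Hspa1b was above Hsph1 in only 5 of 12, so these neighbours were not separated beyond the spread between libraries. Of short windows of transcript sequence, 68.0% of Hspa8 and 53.1% of Hsp90aa1 also occur in transcripts of other genes. Part of the reads of Hspa8 and Hsp90aa1 therefore cannot be placed with certainty, and their levels carry that limit.

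**Figure D1:**
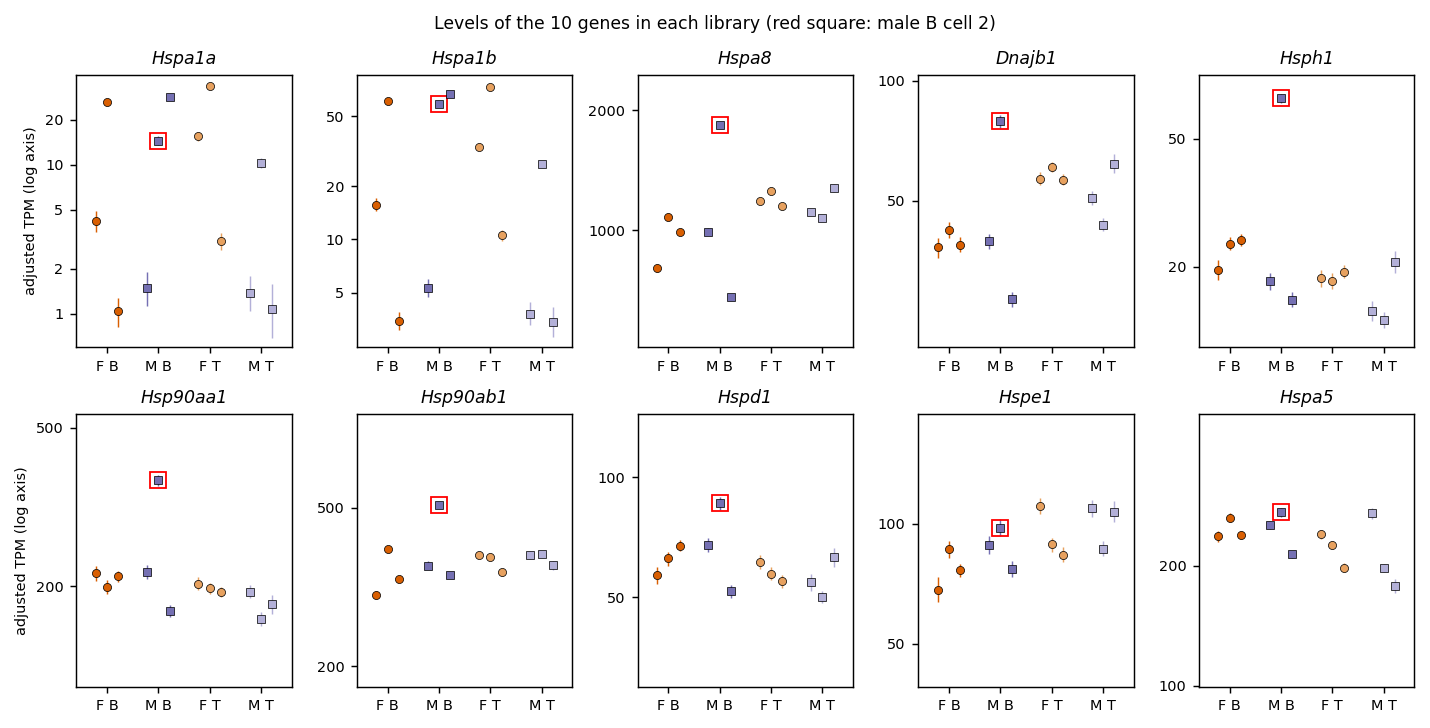
Adjusted TPM (log axis) of each of the 10 genes in female (F) and male (M) B and T cell libraries, 1 point per library in the order of the library numbers, with the deposited lower and upper bounds as bars. Hspa1a and Hspa1b span between 6.92-fold and 25.3-fold inside each group, and male B cell 2 (red square) is the highest of the 12 libraries for 7 of the other 8 genes.

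The inducible HSP70 genes varied most among the 10. Hspa1b (chromosome 17, 34956436 to 34959238, minus strand, GRCm38), a gene with 1 exon, had 15.7, 61.1 and 3.45 adjusted TPM in female B cells 1, 2 and 3 and 5.31, 58.6 and 66.8 in male B cells 1, 2 and 3. In T cells it had 33.7, 73.2 and 10.6 in female libraries 4, 5 and 6 and 3.79, 26.7 and 3.40 in male libraries 4, 5 and 6. Each of the 4 groups held both high and low libraries, so all groups overlapped, and the highest library was 21.6 times the lowest.

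Hspa1a (chromosome 17, 34969190 to 34972156, minus strand), also a gene with 1 exon, had a similar but not identical order of libraries at a lower level. Its lowest library was female B cell 3, while that of Hspa1b was male T cell 6. It had 4.20, 26.4 and 1.04 in female B cells, 1.49, 14.5 and 28.3 in male B cells, 15.5, 33.5 and 3.07 in female T cells and 1.39, 10.3 and 1.08 in male T cells, a 32.1-fold range. The correlation between the deviations of the 2 genes from their group means was 0.985 over 12 libraries. This is a description, since 55.8% of the 75-base windows of the Hspa1b transcript are also present in Hspa1a, so how their reads were split between the 2 genes is uncertain. Their ratio ran from 0.247 to 0.459 over the libraries.

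The spread of this pair was far above that of most genes. On the scale of log2(adjusted TPM + 1), libraries of a group had an SD of 1.69 for Hspa1b and 1.68 for Hspa1a, against a median of 0.135 over the 12520 genes tested, which ranked 15 and 17 from the top among these genes. The deposited bounds of 2 libraries of the same group did not overlap in 11 of the 12 possible pairs, for Hspa1b as for Hspa1a. The count was also 11 for Hspa8 and Hspa5 and 10 for Hsp90ab1, so it does not set this pair apart. The confidence level of these bounds is not given in the sources used here.

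The other stress-responsive genes did not share this order of libraries. Hspa1b was compared with Dnajb1, Hsph1, Hsp90aa1, Hspa8 and the immediate early gene Fos within the 6 B cell and within the 6 T cell libraries, 10 relations in all. Pearson's r was between -0.40 and 0.35 and Spearman's rho between -0.49 and 0.54, and the smallest exact two-sided permutation p of the 10 was 0.458 for r and 0.297 for rho (adjusted p of 0.969 and 1.00). With Hspa8, for example, r was 0.16 in B cells (exact permutation p = 0.792, rho -0.14, p = 0.803) and 0.06 in T cells (exact permutation p = 0.901, rho -0.03, p = 1.00). Without the 2 libraries farthest from the median of Hspa1b, these were 0.29 and 0.19. Over the 10 relations r then ran from -0.77 for Fos in B cells (-0.40 with all 6) to 0.29, and Hsp90aa1 in T cells went from 0.17 to -0.23, each over 4 libraries. These p-values do not show that the genes vary independently. For deviations from the group means over 12 libraries, r with Hspa1b was 0.03 for Dnajb1, 0.11 for Hsph1, -0.01 for Hsp90aa1 and 0.07 for Hspa8. Without male B cell 2 these were -0.47, -0.47, -0.71 and -0.33 over 11 libraries, so the values near 0 depend on that library. It was left out after its values were seen, and these r carry no test.

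Over all genes tested, those whose deviations from the group means followed Hspa1b most closely after Hspa1a were Parp8 (r = 0.95), Tmem181b-ps (0.93), Oma1 (0.92) and Gprasp1 (0.91), over 12 libraries that share their scaling. None of the 4 is on the chaperone lists used here, and Parp8 ranged only from 13.3 to 23.4 adjusted TPM. Some very abundant RNAs also followed Hspa1b, Gm26191 with r = 0.84 (9371 to 74891 adjusted TPM), Rn7sk with 0.75 and Gm22405 with 0.71, while r was -0.46 for Yam1. The part of library composition in the pattern of Hspa1b was not tested.

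Hspa8, the constitutive HSP70 that takes part in folding of new proteins and in clathrin uncoating, showed a different pattern (chromosome 9, 40800984 to 40810087, plus strand). Its level was 805, 1081 and 992 adjusted TPM in female B cells 1, 2 and 3, and 991, 1838 and 679 in male B cells 1, 2 and 3. In T cells it was 1183, 1253 and 1149 in females and 1110.2, 1071 and 1276 in males. Male B cell 2 was the highest and male B cell 3 the lowest of all 12 libraries, and the 6 T cell libraries lay close together between them.

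Dnajb1, the J-domain partner that is itself heat-inducible, had the same 2 libraries at its ends (chromosome 8, 83608193 to 83612653, plus strand). It had 38.2, 42.1 and 38.7 in female B cells, 39.5, 79.0 and 28.3 in male B cells, 56.8, 60.7 and 56.4 in female T cells and 50.8, 43.5 and 61.8 in male T cells. Apart from male B cell 2, every B cell library was below every T cell library. Dnajb1 was also the gene whose deviations from the group means were closest to those of Hspa8 among all genes tested (r = 0.96 over 12 libraries), followed by Taf1c (0.96), 4921514A10Rik (0.96), Mavs (0.96) and Gins2 (0.95). These deviations include male B cell 2, and without it the r of Dnajb1 with Hspa8 was 0.84 over 11 libraries. The r of the mitochondrial Hspd1 with Hspa8 was 0.92 over 12 libraries and 0.85 over these 11, where Dnajb1 was no longer the closest.

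Hsph1, the HSP110 exchange factor, stood out most in male B cell 2 (chromosome 5, 149614287 to 149636376, minus strand). Its level there was 66.6 adjusted TPM, while the other 5 B cell libraries had 19.5, 23.5 and 24.2 in females and 18.0 and 15.7 in males. T cells had 18.4, 18.0 and 19.3 in females and 14.5, 13.6 and 20.7 in males. Male B cell 2 was thus 2.75 times the next highest B cell library, and the other 11 libraries overlapped between cell types.

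The cytosolic HSP90 genes shared the high library to different degrees. Hsp90aa1, the inducible form (chromosome 12, 110690605 to 110702728, minus strand), had 369 adjusted TPM in male B cell 2, while the other B cell libraries had 216, 199 and 212 in females and 217 and 173 in males, and T cells had between 166 and 203. Hsp90ab1, the constitutive form (chromosome 17, 45567775 to 45573271, minus strand), had 507 in male B cell 2, between 302 and 394 in the other B cell libraries and between 344 and 384 in T cells. The other 5 B cell libraries and the T cell libraries overlapped for both genes.

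**Figure D2:**
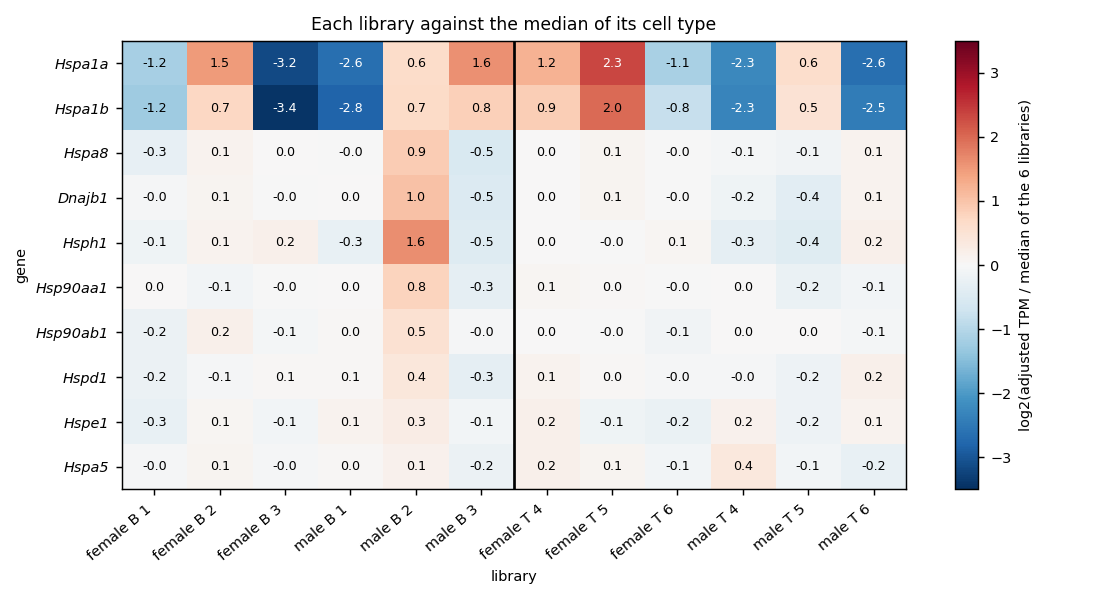
Log2 ratio of each library's adjusted TPM to the median of the 6 libraries of its cell type (colour and number), for the 10 genes (rows) in the 12 libraries (columns, B cells left of the line). Hspa1a and Hspa1b run from strongly negative to strongly positive across libraries, and male B cell 2 is positive for all 10 genes, with 1.6 for Hsph1 and 1.0 for Dnajb1.

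Male B cell 2 was above each of the other 5 B cell libraries for 8 of the 10 genes, all but Hspa1a and Hspa1b, against 11.3% of all genes tested. It was at least 1.5 times the next highest B cell library for 4 of the 10 genes, Hsph1 (2.75 times), Dnajb1 (1.88), Hsp90aa1 (1.70) and Hspa8 (1.70), against 0.256% of all genes, which is 32 genes. With each library set to the same total, 7 of the 10 genes were highest there and 3 were at 1.5 times or more. The library was singled out after its values were seen, so these counts carry no test.

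The wider chaperone lists showed which neighbours of these genes shared the high library. Of 100 other chaperone and co-chaperone genes tested, 30 were highest in male B cell 2 among B cells, against 11.3% of all genes. Of these 100, 6 were at 1.5 times or more, against 0.256% of all genes. They were the HSP90 co-chaperones Ahsa2 (2.04 times the next highest), Stip1 (1.66) and Chordc1 (1.57), the J-domain genes Dnaja1 (1.77) and Dnaja4 (1.55), and the HSP110 relative Hspa4l (1.51). Of these, Dnaja4 was at 0.535 adjusted TPM, where a ratio rests on little expression. With each library set to the same total, 17 of the 100 genes were highest there, against 6.2% of all genes. In that setting 2 HSP90 co-chaperones were at 1.5 times or more, and no J-domain or other HSP70 and HSP110 gene was. Gm15459 (1.59), which holds 64.3% of the 75-base windows of the Hspa8 transcript, and Gm12346 (1.74), which holds 45.0% of those of Hsp90aa1, were also among the 32. Of the 19 ER chaperones and folding enzymes, 14 CCT chaperonin and prefoldin genes and 14 mitochondrial chaperones and proteases tested, none was at 1.5 times or more. With a share of 0.256% over all genes, lists of this size can hold none without differing from other genes.

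Marker genes of other cell types gave these levels in male B cell 2. The 5 T cell markers summed to 10.4 adjusted TPM there, within the 9.76 to 14.1 of the other 5 B cell libraries and far below the 1017 or more of T cells, with Cd4 at 0.00431 and Cd3e at 0.0398. Lck made up 9.43 of this sum, and Tcf7 was highest of the B cell libraries there (0.764 against 0.376 to 0.733). The T cell genes Cd6 (2.54 times), Sh2d1a (1.88) and Tox (1.65), named after their values were seen, were among the 32 genes, at 0.0299, 0.000665 and 0.0989 adjusted TPM, and their part in the pattern was not tested. The 5 erythroid genes summed to 9.05, within the 4.17 to 346 of the other B cell libraries. The 3 monocyte or macrophage genes summed to 13.1, just above the 8.95 to 12.3 of the others. The 8 immediate early genes used as signs of stress during cell isolation summed to 351, within the 162 to 571 of the other B cell libraries. The part of the monocyte or macrophage genes in the pattern was not tested. The 5 B cell markers summed to 2610, against 2618 to 2972 in the other B cell libraries.

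The mitochondrial pair of HSP60 and HSP10, which together form the folding chamber of the matrix, was less variable. Hspd1 (chromosome 1, 55077835 to 55088243, minus strand) had 56.9, 62.6 and 67.4 adjusted TPM in female B cells, 67.5, 86.2 and 51.8 in male B cells, 61.4, 57.3 and 54.8 in female T cells and 54.6, 50.0 and 62.9 in male T cells. Hspe1 (chromosome 1, 55088132 to 55091307, plus strand) had 68.3, 86.5 and 76.4 in female B cells, 88.4, 97.7 and 77.0 in male B cells, 111, 88.7 and 83.7 in female T cells and 109, 86.6 and 107 in male T cells. Levels of both genes overlapped between cell types.

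Hspa5, the ER HSP70 that also holds the sensors of the unfolded protein response in check, had the narrowest range, 1.53-fold (chromosome 2, 34771970 to 34777547, plus strand). It had 237, 264 and 238 in female B cells, 253, 272 and 214 in male B cells, 239.8, 225 and 197 in female T cells and 270.5, 198 and 178 in male T cells. Across the 12 libraries its deviations from the group means were closest to those of Fam134a (r = 0.97), Homer1 (0.97), Fzr1 (0.96), Mtx1 (0.95) and Tprn (0.95). Of the immediate early genes, r with Hspa5 was 0.87 for Ier2, 0.81 for Jun, 0.79 for Junb, 0.72 for Dusp1, 0.71 for Fos, 0.70 for Fosb and 0.02 for Egr1, and Jun ran from 36.2 to 179.9 adjusted TPM over the libraries. The part of isolation stress in the level of Hspa5 was not tested.

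B cells were compared with T cells to see which of these genes differ between the 2 lymphocyte types. Of the 10 genes, 1 was past the threshold, Hspe1, which was higher in T cells. Its mean was 82.4 ± 10.5 adjusted TPM in B cells (SD, n = 6) against 97.8 ± 12.7 in T cells (SD, n = 6), a log2 fold change of -0.24 with an SE of 0.10 and an adjusted p of 0.0355 in limma. Of all 12520 genes tested, 73% were past it, 31.4% towards B cells and 41.6% towards T cells. None of the 10 genes was without overlap between the 6 B and 6 T cell libraries, against 53.9% of all genes. The median log2 fold change of the 10 genes was 0.18 and that of all genes tested -0.09. Of 7 immediate early genes tested, 3 were past the threshold and higher in T cells (Junb, Ier2 and Dusp1), and their part in these values was not tested.

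**Figure D3:**
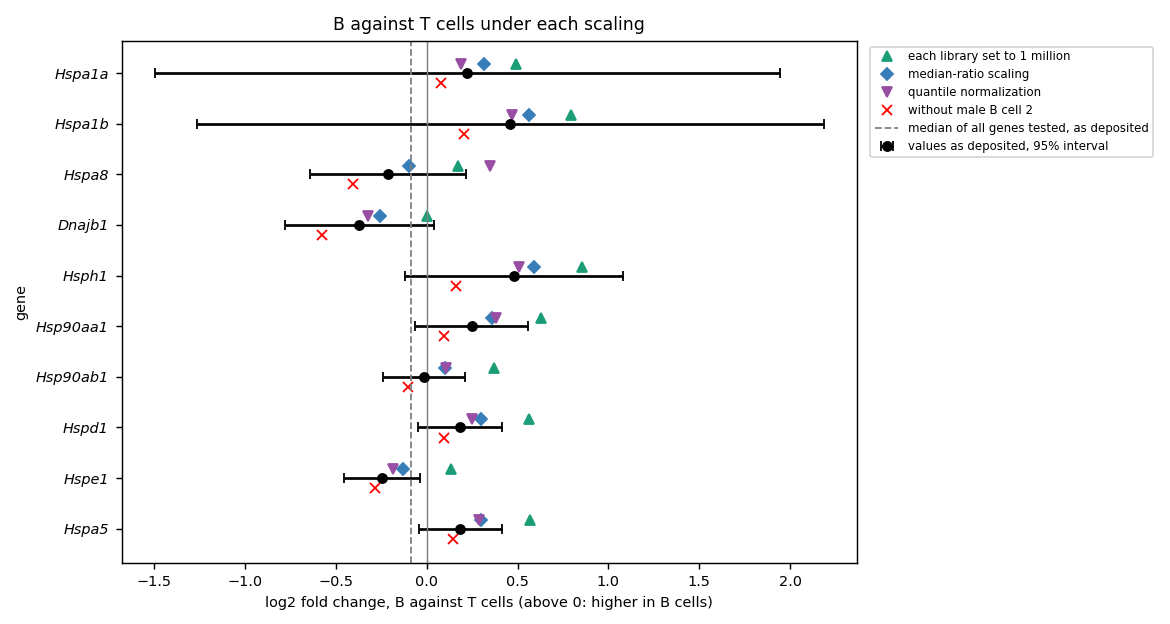
Log2 fold change between B and T cells for each of the 10 genes (values above 0 are higher in B cells), as deposited with its 95% interval from limma (black), under 3 other scalings (coloured), and without male B cell 2 (red crosses). Only the interval of Hspe1 excludes 0, and the triangles for libraries set to an equal total lie to the right of the black points for every gene.

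The other 9 genes had log2 fold changes between -0.37 for Dnajb1 (95% interval -0.78 to 0.04, adjusted p = 0.0935) and 0.48 for Hsph1 (-0.12 to 1.08, adjusted p = 0.134). The intervals of Hspa1a (-1.49 to 1.94) and Hspa1b (-1.26 to 2.18) leave room for differences of several fold in either direction, while that of Hsp90ab1 (-0.24 to 0.21) does not. Hspd1 (0.18, adjusted p = 0.135), Hspa5 (0.19, adjusted p = 0.128), Hsp90aa1 (0.25, adjusted p = 0.133) and Hspa8 (-0.21, adjusted p = 0.342) lay between.

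Single libraries and the scaling decided these calls. Without male B cell 2, 3 of the 10 genes were past the threshold, against 71.2% of all genes. These 3 were higher in T cells, Dnajb1 (-0.57, adjusted p = 0.000364 in limma), Hspa8 (-0.41, adjusted p = 0.0141 in limma) and Hspe1. Without male B cell 3, 3 other genes were past it and higher in B cells, Hsph1, Hsp90aa1 and Hspd1, and without male T cell 4 Hspa5 alone was past it (adjusted p = 0.0128). The call of Hspe1 was lost without any of 7 single libraries (female B cells 1 and 3, male B cells 1 and 3, female T cell 4 and male T cells 4 and 6). With each library set to a total of 1000000 its log2 fold change was 0.13 in place of -0.24, and the median of all genes was 0.25. In that setting 6 of the 10 genes were past the threshold, all towards B cells. Of all genes, 54.3% were past it there, and 70.8% of these calls were towards B cells. The call of Hspe1 was also lost under median-ratio scaling (-0.13) and quantile normalization (-0.18). There 3 and 2 other genes of the 10 were past the threshold towards B cells, against 72.2% and 73.2% of all genes in either direction. Those 3 and 2 were Hsp90aa1 and Hspa5 under both and Hspd1 under the first. The sign of Dnajb1 (0.00 with equal totals), of Hsp90ab1 (above 0 under all 3 other scalings) and of Hspa8 (0.17 with equal totals and 0.35 under quantile normalization) differed between scalings as well. The totals rest in part on a single RNA, Yam1, listed at 14179 to 543238 adjusted TPM.

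A ratio between 2 genes inside a library does not change when that library is multiplied by 1 factor, as with equal totals or median-ratio scaling, but can change under quantile normalization. For 5 pairs chosen after the values were seen, the log2 ratio was compared between 6 B and 6 T cell libraries by a two-sided exact permutation test, for which 0.00216 is the smallest p possible, and p was adjusted over the 5. Because of that choice these p-values describe the separation and are not independent support for it. Hspe1 over Hspd1 was 1.20, 1.38 and 1.13 in female B cells, 1.31, 1.13 and 1.49 in male B cells, 1.81, 1.55 and 1.53 in female T cells and 2.00, 1.73 and 1.71 in male T cells. The mean was 1.27 ± 0.143 in B cells and 1.72 ± 0.177 in T cells (SD, n = 6 each) with no overlap (exact permutation p = 0.00216, adjusted p = 0.00541), and p was 0.00433 without male B cell 2. Separation was common, with 53.9% of single genes tested without overlap, and the share over ratios of 2 genes is not given here. Of the windows of 75 bases, 23.7% of Hspe1 and 33.7% of Hspd1 also occur in transcripts of other genes, so part of these reads cannot be placed with certainty.

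Hspa5 over Hsp90b1, the ER member of the HSP90 family, was 1.40 ± 0.132 in B cells and 2.26 ± 0.372 in T cells (SD, n = 6 each). The B cell libraries ran from 1.25 to 1.57 and the T cell libraries from 1.98 to 3.00, again without overlap (exact permutation p = 0.00216, adjusted p = 0.00541). Hsp90b1 alone was already without overlap, with 153 to 209 adjusted TPM in B cells and 87.4 to 108 in T cells. Hspa5 alone overlapped (214 to 272 and 178 to 270.5), so the separation of this ratio goes with Hsp90b1. Of all single genes tested, 53.9% were without overlap. Hsp90aa1 over Hsp90ab1 was 0.617 ± 0.0956 in B cells and 0.511 ± 0.0439 in T cells (SD, n = 6 each) with overlapping libraries (exact permutation p = 0.0390, adjusted p = 0.0487), and p was 0.0779 without male B cell 2. Dnajb1 over Hspa8 was 0.0416 ± 0.00322 in B cells and 0.0467 ± 0.00320 in T cells (SD, n = 6 each, exact permutation p = 0.0325, adjusted p = 0.0487). Hspa1a over Hspa1b did not pass (exact permutation p = 0.212). Of the windows of transcript sequence, 68.0% of Hspa8 and 53.1% of Hsp90aa1 also occur in transcripts of other genes. Part of the reads behind Dnajb1 over Hspa8 and Hsp90aa1 over Hsp90ab1 therefore cannot be placed with certainty.

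**Figure D4:**
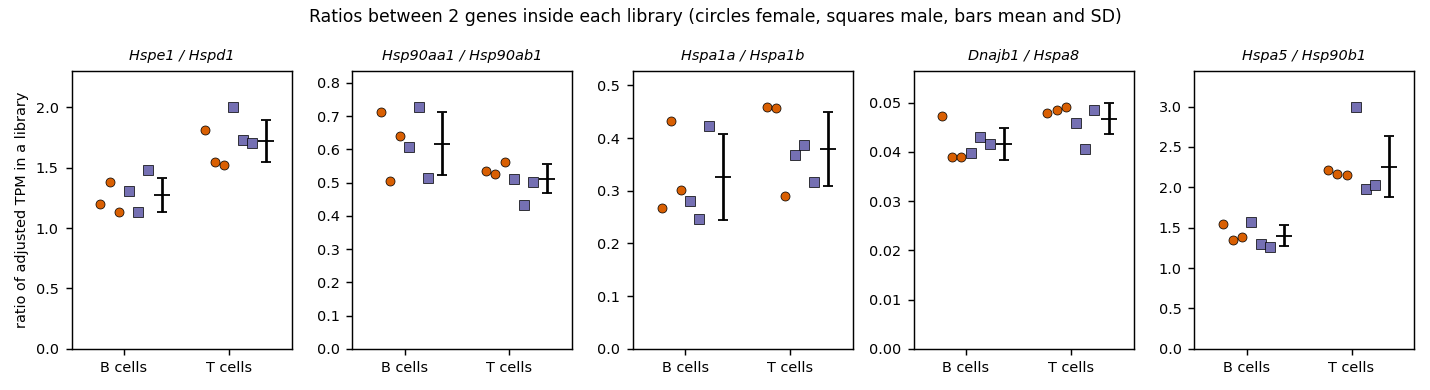
Ratio of adjusted TPM between 2 genes in each library, for 5 pairs, with B cells on the left and T cells on the right of each panel (circles female, squares male, bars mean and SD of 6 libraries). Hspe1 over Hspd1 and Hspa5 over Hsp90b1 are lower in all 6 B cell libraries than in any T cell library, while the other 3 pairs overlap.

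The sexes were compared separately in B cells and T cells. In B cells 0 of the 10 genes were past the threshold in limma, against 0.144% of all genes, and 0 had an unadjusted p under 0.05, against 2.98% of all genes. The log2 fold changes ran from -0.82 for Hspa1b (SE 1.12) to 0.01 for Hspa5 (SE 0.15), and the smallest unadjusted p was 0.179, for Hsp90ab1. In T cells 0 of 10 were past it, against 0.104% of all genes, and 0 had an unadjusted p under 0.05, against 2.55%. There Hspa1b had 39.2 ± 31.7 (SD, n = 3) adjusted TPM in females and 11.3 ± 13.3 (SD, n = 3) in males, with overlapping libraries and a log2 fold change of 1.89 (SE 1.12, unadjusted p = 0.117 in limma). In the same-numbered pairs of T cell libraries the female was higher in 3 of 3 for Hspa1b and in 3 of 3 for Hspa1a. The 2 genes share much of their sequence, so these are not separate observations. The share of all genes with 3 of 3 pairs in 1 direction is not given here. With the replicate number as a block the adjusted p in limma was 0.598 for Hspa1b and 0.661 for Hspa1a. No gene was without overlap between the sexes in either cell type, against 7.2% of all genes in B cells and 8.49% in T cells. The difference between the sex effects in B and T cells was past the threshold for 0 of the 10 genes and 0% of all genes, and 0 of the 10 had an unadjusted p under 0.05, against 2.36% of all genes. With each library set to the same total, Hspa1a and Hspa1b were past the threshold between the sexes in T cells and in the difference of the sex effects. That fit did not use each gene's own spread. In it the median of all genes between females and males in T cells was 0.253, in place of -0.000379 as deposited. The median of the difference was -0.330, in place of -0.0133. The share of all genes past the threshold in that fit is not given here.

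The rest of the chaperone system was compared between B and T cells from lists of its parts. Of 112 other chaperone, co-chaperone and regulator genes listed, 100 were tested and 70 were past the threshold, 24 towards B cells and 46 towards T cells, a share of 70% against 73% of all genes. The shares were 36% against 54.3% with equal totals and 61% against 72.2% under median-ratio scaling. This split depends on the scaling, since 31 of 36 called genes were higher in B cells when each library was set to a total of 1000000, and 28 of 61 under median-ratio scaling. The medians were -0.13 for the listed genes and -0.09 for all genes.

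ER chaperones and the regulators of the unfolded protein response held the largest differences towards B cells. Of 19 ER genes, 11 were higher in B cells and 6 in T cells, against 31.4% and 41.6% of all genes. The split of this list was 11 and 1 with equal totals and 11 and 5 under median-ratio scaling. Ero1lb, an oxidase that recharges disulfide isomerases, had 79.5 ± 4.64 adjusted TPM in B cells and 7.79 ± 0.724 in T cells (SD, n = 6 each, log2 fold change 3.20, adjusted p = 6.9e-14 in limma). The disulfide isomerase Pdia4 (1.39) and Sdf2l1 (1.06), a partner of Hspa5, followed, while Dnajc3 (-1.21), Dnajc10 (-0.38) and Pdia3 (-0.37) were higher in T cells, Pdia3 not when each library was set to the same total, where it was 0.01. All 7 unfolded protein response genes were past the threshold, against 73% of all genes. Of them, 5 were higher in B cells, led by the sensor Atf6 (26.2 ± 1.51 and 2.23 ± 0.262, SD, n = 6 each, log2 fold change 3.08), the sensor kinase Eif2ak3 (1.74) and the transcription factor Xbp1 (0.87). The other 2, Ppp1r15a (-1.05) and Ddit3 (-0.45), were higher in T cells. This split of 5 and 2 was 5 and 1 with equal totals, and 4 and 2 under quantile normalization or without male B cell 2. Hspa5 itself, a classical target of the unfolded protein response, was not past the threshold in the values as deposited (0.19). It was past it towards B cells with equal totals (0.57), under median-ratio scaling (0.30) and under quantile normalization (0.29).

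Among cytosolic folding genes, calls in the values as deposited were mostly towards T cells, against 41.6% of all genes towards T cells and 31.4% towards B cells. Of the 14 genes of the CCT chaperonin, which folds actin and tubulin, and of its partner prefoldin, 10 were higher in T cells and 0 in B cells, with Cct7 (-0.49), Pfdn1 (-0.48) and Pfdn5 (-0.47) in front. With each library set to the same total 0 of these 14 genes were past the threshold, and under median-ratio scaling 9 were, all towards T cells. Of 12 HSP90 co-chaperones, 6 were higher in T cells and 0 in B cells, among them Fkbp5 (-0.77), a target of the glucocorticoid receptor, the kinase-specific Cdc37 (-0.66) and Chordc1 (-0.36, but 0.01 with equal totals). With equal totals the split of this list turned to 3 towards B cells and 1 towards T cells, and under median-ratio scaling it was 0 and 4. Of 7 HSP70 exchange and adaptor genes tested, 4 were higher in T cells, among them Bag1 (-0.56), Bag5 (-0.53) and Bag4 (-0.18, but 0.17 with equal totals), and with equal totals 1 was past the threshold.

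**Figure D5:**
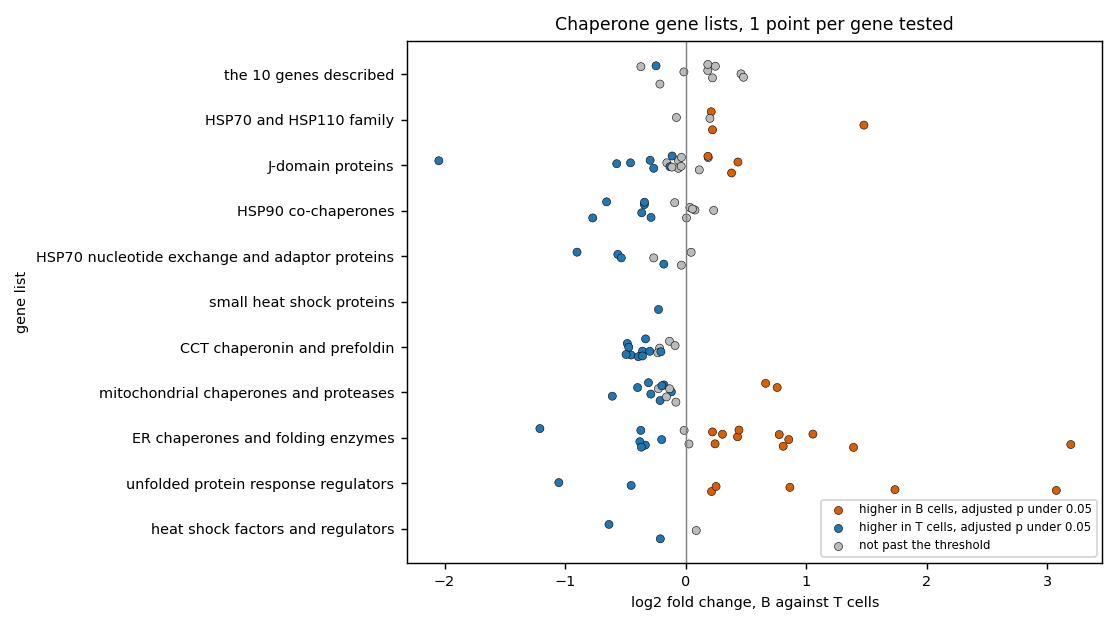
Log2 fold change between B and T cells (1 point per gene tested) for the 10 genes described and 10 lists of other chaperone genes, coloured by direction where the adjusted p was under 0.05. The 10 genes lie between -0.37 and 0.48 with 1 coloured point, CCT and prefoldin genes lie below 0, and ER and unfolded protein response genes reach above 3.

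The remaining lists were mixed in direction, where 31.4% of all genes were past the threshold towards B cells and 41.6% towards T cells. Of 18 J-domain genes, 3 were higher in B cells, Dnajc7 (0.43), Dnajc9 (0.38) and Dnajc13 (0.19), and 7 in T cells, among them Dnajc17 (-0.57), Dnajc8 (-0.46) and Dnaja2 (-0.29, but 0.08 with equal totals). The split of this list was 5 towards B cells and 1 towards T cells with equal totals and 5 and 5 under median-ratio scaling. Of 5 other HSP70 and HSP110 genes tested, 3 were higher in B cells, Hspa13 (0.22), Hspa4 (0.21) and Hspa2 (1.48), the last of these named after its values were seen. Of 14 mitochondrial chaperones and proteases, 2 were higher in B cells, the protease Htra2 (0.76) and the exchange factor Grpel2 (0.66), and 8 in T cells, among them Spg7 (-0.40), Yme1l1 (-0.31) and Grpel1 (-0.29), of which Yme1l1 and Grpel1 were at 0.07 with equal totals. With equal totals the split of this list was 2 and 0, and under median-ratio scaling 2 and 4. The only small heat shock gene tested of 7 listed, Hspb6, had -0.23 (adjusted p = 0.0450 in limma). It was not past the threshold with equal totals (-0.02), under median-ratio scaling (-0.17) or without male B cell 2 (-0.16). The 7 listed genes together summed to between 0.964 and 1.88 adjusted TPM in a library, so this value rests on little expression. Of 3 heat shock factor genes tested of 5 listed, Hsf2 (-0.64) and Hsbp1 (-0.21, but 0.16 with equal totals) were higher in T cells, and Hsf1, the main activator of the inducible genes, was not past the threshold (14.1 ± 1.99 and 13.1 ± 0.972, SD, n = 6 each).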

How the data were processed

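RNA was measured by sequencing in 12 libraries, 4 groups of 3. Per the labels, libraries were stranded total RNA after removal of ribosomal RNA, with added spike-in RNA. The submitters' processing notes name Trim Galore, FastQC, STAR and mm10, without versions, and the quantification and rescaling tools are not given in the sources used here. The table deposited by the authors holds a signal named adjusted TPM with a lower and an upper bound for 41128 genes in each library. It has no counts, so depth and counting intervals are unknown. Female B cell 1 sums to 1000000, the other libraries do not.

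Fold changes are differences of log2(adjusted TPM + 1). The pseudocount of 1 understates low genes. The filter kept 12520 genes, those that reached 1 in 3 or more libraries. The test was limma 3.58.1 (R 4.3.3) with 1 coefficient per group over 12 libraries, a mean-variance trend and Benjamini-Hochberg adjustment over all genes tested, with a threshold of 0.05, checked on simulated data. Correlations and ratios used exact two-sided permutation tests (scipy 1.17.1). Replicates are pools of animals, and p-values measure the spread between these pools.

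The 10 genes and all lists were chosen with earlier results of these data known. From each list, up to 3 genes past the threshold were named in each direction by size of change, if their mean log2 value was 3 or more. For Hspa1b, Hspa8 and Hspa5, the 5 most similar genes over 12 libraries were named. Gene positions are from GENCODE M21 (GRCm38). Shared sequence is the share of 75-base windows of the longest listed coding transcript found in transcripts of other genes. Same-numbered female and male T cell libraries deviated together from their group means (r of 0.72, 0.55 and 0.52), so the numbers were taken as pairs in T cells. In B cells r was -0.17, -0.04 and -0.34, and they were not.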

Additional observations from a re-analysis of the deposited data

Results flagged for a closer look

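In the 6 B cell libraries, taken as 1 set over both sexes, male B cell 2 stood farther from the next library than Dixon's 95% limit for 6 values allows in 4 of the 10 genes. Its adjusted TPM was 79.0 for Dnajb1, 66.6 for Hsph1, 369 for Hsp90aa1 and 1838 for Hspa8, with a gap of 0.727, 0.833, 0.777 and 0.653 of the whole range. In the T cell libraries 0 of the 10 genes passed this limit at either end. Chance alone flags about 1 in 20 such sets, and the 4 genes come from 1 library.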

How the results depend on the processing

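The count of genes past the threshold between B and T cells, 1 of 10, was 6 with each library set to a total of 1000000, 3 under median-ratio scaling, 2 under quantile normalization and 0 with no filter, and ran from 0 to 3 when single libraries were left out. All 6, 3 and 2 were higher in B cells. Of all genes, 73% were past the threshold as deposited, and 54.3%, 72.2% and 73.2% under these 3 scalings. With equal totals limma's prior degrees of freedom were infinite, so each gene's own spread was not used. That setting gave 2 genes (Hspa1a and Hspa1b) between the sexes in T cells and 2 in the difference of the sex effects. The medians of all genes also moved there, to 0.253 and -0.330. For Hspe1 between B and T cells it gave 0.13 in place of -0.24. Other chaperone genes past the threshold were 70, 36 with equal totals and between 62 and 72 without single libraries. The number highest in male B cell 2 was 8, and 7 with equal totals or quantile normalization. Within groups, the SD of the 10 genes had a median of 0.34, and of 0.19 without male B cell 2, an alternative chosen after seeing the data, as were the ratios inside a library and their values without that library. In the sex comparisons 0 genes were past the threshold without any single library. With the replicate number as a block, 0 of the 10 genes were past the threshold between the sexes in either cell type, and the pairing changed no call. No paired analysis was possible between B and T cells because they share no numbers. Of the single values, 19 alternatives brought one past the threshold, 11 lost a call and 1 reversed. Of fold changes not past the threshold, 11 moved by more than the spread between replicates and 25 others took the other sign. Depth is unknown, so no limit from counting can be set.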
